A study of Mus musculus with 9 samples.

Results

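Astrocytes were followed through 8 genes of their cytoskeleton, transport and metabolism: Gfap, Vim, Aqp4, Slc1a2, Slc1a3, Aldh1l1, Glul and Gja1. The genes were taken by name from the deposited count and FPKM tables, which list 53465 genes, and all 8 were among the 18501 genes with enough counts to be tested. Whole-brain poly(A) RNA of male C57BL/6 mice, 7 weeks old at the start, was sequenced as 3 control (CON), 3 diabetic neuropathic pain (DNP) and 3 baclofen-treated DNP (BAC) libraries, each from its own mouse. CON mice received neither the diet nor the toxin of the other groups. DNP and BAC mice ate a diet with 60% fat for 4 weeks and were then injected with streptozotocin at 50 mg/kg once a day for 7 days, which destroys the insulin-producing cells of the pancreas. BAC mice were given 8 mg/kg of baclofen daily for 7 days, a drug that activates GABA-B receptors, and the CON and DNP mice were given saline. CON and DNP thus differ in diet, toxin and diabetes together, and no group received baclofen without diabetes. Pain behaviour was assessed 4 weeks after streptozotocin. Between 13107382 and 16008129 reads per library were counted on genes.

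Astrocytes take up the glutamate and potassium that neurons release, pass ions and metabolites to each other through gap junctions, and hold the water channel of the brain at their endfeet on vessels. Injury and inflammation can bring on a reactive state, of which more GFAP is the classical sign. Astrocytes also differ between brain regions: GFAP is abundant in brainstem, spinal cord and white matter and sparse in cortical grey matter, the glutamate transporter GLT-1 (Slc1a2) is the main one of the forebrain, and its relative GLAST (Slc1a3) is the main one of the Bergmann glia of the cerebellum.

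The promoter windows of Gfap and Slc1a2 are shown because Gfap had the largest fold change of the 8 genes and Slc1a2 is the most abundant of the glutamate transporters among them. Each window has 300 bases around 1 RefSeq start on GRCm38.p6. These starts, 102897200 for Gfap and 102706438 for Slc1a2, lie inside the GENCODE gene spans and not at their 5′ ends. The Slc1a2 span begins at 102658659, and that of Gfap, on the minus strand, at 102900912. Promoters at other starts of the 2 genes are not shown. The Gfap window is chr11:102897151-102897450 on the minus strand and that of Slc1a2 is chr2:102706188-102706487 on the plus strand. Both are written 5′ to 3′ in lower case, with capitals for the letters TTCCNGGAA, a motif of the kind that STAT factors bind, which reads the same on both strands.

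Gfap: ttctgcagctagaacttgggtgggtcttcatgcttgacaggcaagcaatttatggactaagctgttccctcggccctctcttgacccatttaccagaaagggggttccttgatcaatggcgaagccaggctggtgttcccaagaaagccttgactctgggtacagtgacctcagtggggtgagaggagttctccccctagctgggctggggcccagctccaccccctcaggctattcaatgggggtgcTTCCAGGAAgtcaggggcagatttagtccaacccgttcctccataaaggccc

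Slc1a2: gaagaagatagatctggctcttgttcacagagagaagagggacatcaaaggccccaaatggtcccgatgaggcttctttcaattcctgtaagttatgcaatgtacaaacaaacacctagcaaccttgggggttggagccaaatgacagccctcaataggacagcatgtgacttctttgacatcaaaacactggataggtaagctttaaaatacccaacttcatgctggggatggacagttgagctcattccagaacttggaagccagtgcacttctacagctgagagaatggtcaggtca

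The motif occurred in 377 of 32851 promoter windows of this length (1.15%). Windows of 7 of the genes were searched, and 1, that of Gfap, held it. The match covers bases 102897194 to 102897202, which include the RefSeq start at 102897200, and lies 63 bases upstream of the start of the GENCODE transcript Gfap-201 at 102897131. It is a match of letters only, and no binding was measured here.

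Libraries labelled as whole brain differed in brain-region content, which has to be known before the astrocyte genes are read. A list of 12 brainstem and spinal cord markers, most of them Hox genes, summed to 378 CPM (counts scaled to library size, with TMM factors) in DNP 1, 466 in BAC 1 and 409 in BAC 3. In the other 6 libraries the sum was 0.138 to 28.7 CPM, and between 8 and 11 of the 12 markers had no count. The mean log2 deviation of the list from the average of the 9 libraries, used as a score, was 3.64 to 4.59 in those 3 libraries and -2.38 to -1.56 in the others. A list of 10 forebrain markers summed to 78.8 to 120 CPM in the same 3 libraries and to 134 to 689 CPM in the rest. The sum of 12 cerebellar markers ran from 212 CPM in BAC 2 to 6986 CPM in CON 2, and Gabra6, a gene of cerebellar granule cells, had no count in DNP 2, DNP 3 and BAC 2. The brainstem markers were thus present in no CON library, 1 DNP library and 2 BAC libraries at this level, so the fold changes of the 8 genes are given below with and without those 3 libraries. In bulk tissue, fewer astrocytes and less RNA per astrocyte cannot be told apart.

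On the length-corrected FPKM scale, Glul, the gene of the glutamine synthetase that turns glutamate into glutamine, had the highest level of the 8 in every group, at 283 ± 63.9 FPKM in CON, 411 ± 72.5 in DNP and 383 ± 68.9 in BAC (means ± SD of 3 libraries). Slc1a2 came next, at 140.0 ± 66.0 FPKM in CON, 116 ± 15.2 in DNP and 125 ± 42.9 in BAC, and its libraries did not overlap those of Glul in any group. It overlapped the next gene of the order in CON and BAC but not in DNP. Slc1a3, Aqp4 and Gfap formed the middle of the order, with group means from 25.8 to 95.7 FPKM, and each overlapped its neighbour among these 3 in every group. Gja1 (14.6 to 19.5 FPKM), Aldh1l1 (10.2 to 11.5) and Vim (5.57 to 9.76) were lowest in each group. Gja1 did not overlap Aldh1l1 in DNP and BAC but did in CON, and Aldh1l1 did not overlap Vim in DNP but did in CON and BAC. Over the 9 libraries the spread in CPM differed greatly between the genes: the highest library exceeded the lowest 4.84-fold for Aqp4, 4.04-fold for Gfap, 4.02-fold for Vim, 2.97-fold for Slc1a2 and for Slc1a3, 2.35-fold for Glul, 1.90-fold for Gja1 and 1.43-fold for Aldh1l1.

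**Figure D1:**
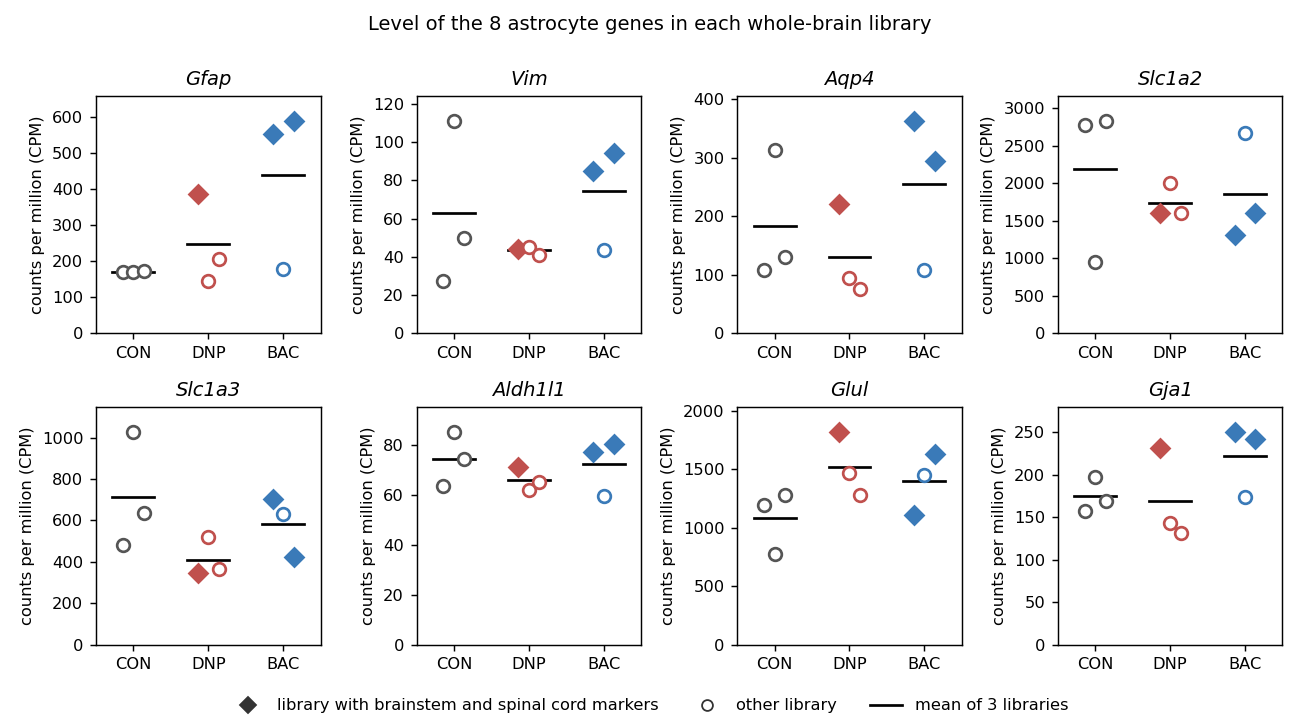
CPM (y axis, from 0) of each of the 8 genes in the 9 libraries by group (x axis). Filled diamonds are the 3 with brainstem and spinal cord markers (DNP 1, BAC 1 and BAC 3), open circles the other 6, and lines the group means. For Gfap the diamonds sit between 386 and 588 CPM and the circles between 146 and 207, and Slc1a2, Slc1a3, Vim and Aqp4 have a CON library (CON 2) far from the other 2.

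Gfap encodes the glial fibrillary acidic protein, the main intermediate filament of astrocytes, on chromosome 11 (102887336-102900912, minus strand, GRCm38). Its level in CPM was 171, 171 and 172 in CON, 386, 146 and 207 in DNP, and 553, 178 and 588 in BAC. The 3 CON libraries were almost equal, with a coefficient of variation of 0.322%, against 50.8% in DNP and 51.7% in BAC. DNP 1, BAC 1 and BAC 3, the libraries with brainstem markers, were high, and the other DNP and BAC libraries lay near CON. The log2 fold change was 0.53 ± 0.47 (SE) in DNP versus CON (edgeR quasi-likelihood test, adjusted p = 0.715), 0.84 ± 0.47 in BAC versus DNP (adjusted p = 0.998) and 1.36 ± 0.48 in BAC versus CON (adjusted p = 0.628, unadjusted p = 0.0195). BAC and CON did not overlap, since the lowest BAC library (178) stood above the highest CON library (172). Without the 3 libraries the log2 fold changes were 0.03, 0.02 and 0.05 in the same order, with a single BAC library left that is assumed to vary like the other groups. With the brainstem score as a covariate they were 0.08, 0.20 and 0.28 (unadjusted p = 0.634, 0.282 and 0.183). With the cerebellar score instead they were 0.94, 0.35 and 1.29 (edgeR unadjusted p = 0.0257, 0.346 and 0.00381). The adjusted p was 0.181 for DNP versus CON and 0.105 for BAC versus CON in that edgeR fit. With both scores the fold changes were 0.0008, 0.21 and 0.21.

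Vim encodes vimentin, an intermediate filament that immature and reactive astrocytes share with endothelial and ependymal cells (chromosome 2, 13573927-13582826). Its CPM were 27.6, 111 and 49.9 in CON, 44.3, 45.0 and 40.7 in DNP, and 84.8, 43.7 and 94.3 in BAC. CON held both the lowest and the highest of the 9 libraries, while the DNP libraries were close together. The log2 fold changes were -0.54 ± 0.47, 0.78 ± 0.47 and 0.24 ± 0.47 (SE), with the comparisons in the same order as for Gfap, and edgeR adjusted p of 0.711, 0.998 and 0.910. Without CON 2 the first of these was 0.16, and with both the brainstem and the cerebellar score as covariates it was 0.97 (unadjusted p = 0.0267, adjusted p = 0.316), so its sign turned. In the 6 libraries without brainstem markers the fold changes of Vim were -0.57, 0.03 and -0.54.

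Aqp4 encodes aquaporin-4, the water channel of astrocyte endfeet. Its CPM were 109, 313 and 131 in CON, 222, 95.4 and 74.9 in DNP, and 363, 108 and 295 in BAC. CON 2, DNP 1, BAC 1 and BAC 3 were high, and the other 5 libraries lay between 74.9 and 131. The log2 fold changes of -0.50 ± 0.59, 0.97 ± 0.60 and 0.47 ± 0.59 (SE) did not pass the test (edgeR adjusted p = 0.803, 0.998 and 0.868). Without the 3 libraries with brainstem markers they were -1.13, 0.35 and -0.78, so that BAC versus CON changed sign.

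Slc1a2 encodes GLT-1 (chromosome 2, 102658659-102790784). Its CPM were 2774, 951 and 2826 in CON, 1603, 2003 and 1600.3 in DNP, and 1313, 2663 and 1599 in BAC. CON 2 had the lowest level of the 9 libraries although the other 2 CON libraries had the highest. The log2 fold changes were -0.33 ± 0.42, 0.10 ± 0.42 and -0.23 ± 0.42 (SE), with edgeR adjusted p of 0.818, 0.998 and 0.902. Without CON 2, DNP versus CON was -0.70 (unadjusted p = 0.0463, adjusted p = 0.537), and with both scores as covariates it was -1.23 (unadjusted p = 0.0217, adjusted p = 0.303). The fold changes of Slc1a2 without the 3 libraries with brainstem markers were -0.29, 0.57 and 0.28, so that BAC versus CON changed sign.

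Slc1a3 encodes GLAST (chromosome 15, 8634124-8710764, minus strand). Its CPM were 479, 1026 and 637 in CON, 345, 521 and 363 in DNP, and 703, 629 and 421 in BAC. CON 2 was again the extreme library, here the highest. DNP versus CON gave a log2 fold change of -0.80 ± 0.32 (SE; 95% interval -1.53 to -0.07), with an unadjusted p of 0.0355 and an adjusted p of 0.416 in edgeR. The highest DNP library (521) lay above the lowest CON library (479), so the groups overlapped. The fold change was -0.45 without CON 2 (unadjusted p = 0.149) and 0.28 with both scores as covariates (unadjusted p = 0.333). BAC versus DNP was 0.51 ± 0.32 and BAC versus CON -0.29 ± 0.32 (adjusted p = 0.998 and 0.850). In the 6 libraries without brainstem markers Slc1a3 had fold changes of -0.71 (unadjusted p = 0.115), 0.51 and -0.20.

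Both glutamate transporters thus had their extreme value in CON 2, the library with the highest cerebellar score (3.72), but in opposite directions. BAC 1, with the next highest score (2.78), had the second lowest Slc1a2 and the second highest Slc1a3. BAC 3 (score 1.46) had 1599 CPM of Slc1a2 and 421 of Slc1a3. CON 3 (1.21) had 2826 CPM of Slc1a2, the highest of the 9 libraries, and 637 of Slc1a3. DNP 1 (0.67) had 1603 and 345 CPM of the 2 genes, and CON 1 (-1.50) had 2774 and 479. The 3 libraries with the lowest scores, DNP 2, DNP 3 and BAC 2 (-2.76, -2.75 and -2.82), held 1600.3 to 2663 CPM of Slc1a2 and 363 to 629 CPM of Slc1a3. Gdf10, a gene of Bergmann glia, was 189 CPM in CON 2 and 112 in BAC 1, and 7.68 to 47.6 in the other 7. The part of the cerebellar content in the transporter values was not tested apart from the fits with the scores.

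**Figure D2:**
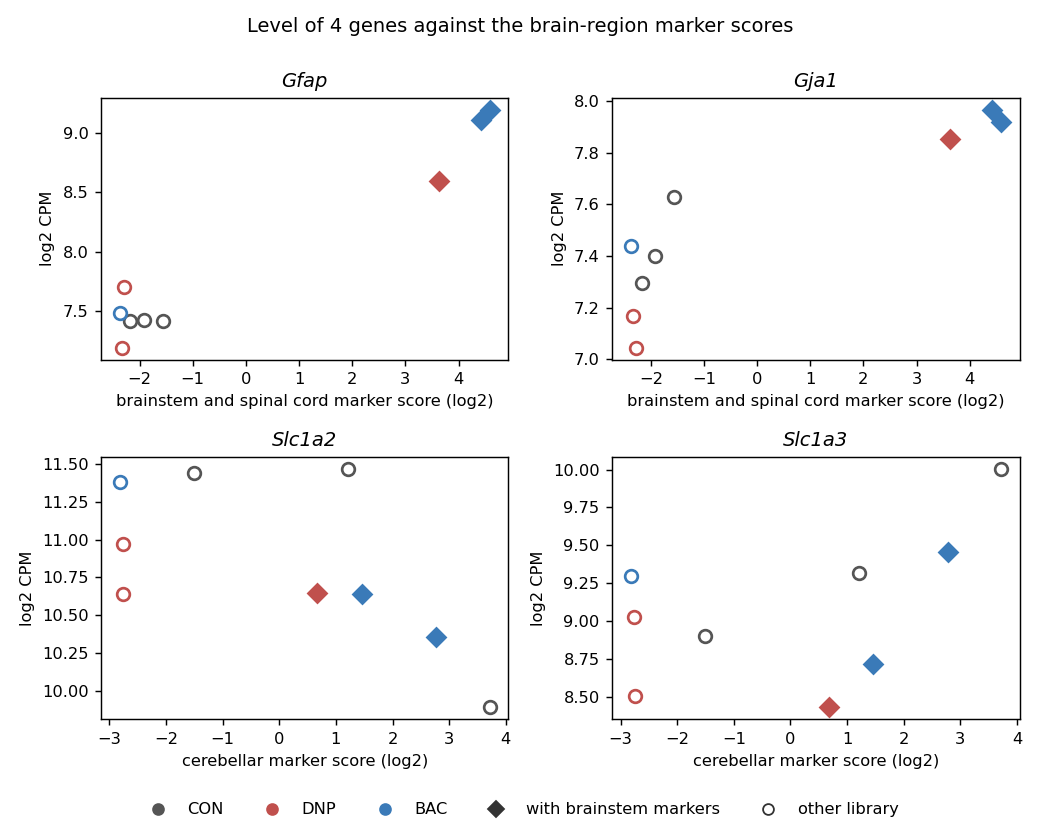
Log2 CPM (y axis) of Gfap and Gja1 against the score of 12 brainstem and spinal cord markers (x axis, top row) and of Slc1a2 and Slc1a3 against that of 12 cerebellar markers (x axis, bottom row), 1 point per library, coloured by group. Scores are mean log2 deviations from the average of the 9 libraries. Gfap and Gja1 are highest in the 3 libraries with brainstem scores above 0 (diamonds), and at the highest cerebellar score (CON 2, 3.72) Slc1a2 is lowest and Slc1a3 highest.

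Glul (chromosome 1, 153899944-153909723) had 1193, 774 and 1276 CPM in CON, 1816, 1464 and 1278 in DNP, and 1112, 1449.9 and 1633 in BAC. DNP and CON did not overlap, but the lowest DNP library (1278) and the highest CON library (1276) were nearly equal. The log2 fold change in DNP versus CON was 0.49 ± 0.25 (SE; 95% interval -0.07 to 1.05), with an unadjusted p of 0.0794 and an adjusted p of 0.490 in edgeR. It was 0.33 without the 3 libraries with brainstem markers, 0.29 without CON 2 and -0.14 with both scores as covariates. BAC versus DNP was -0.12 ± 0.25 and BAC versus CON 0.37 ± 0.25 (adjusted p = 0.998 and 0.717), and these were 0.08 and 0.41 without the 3 libraries. Oligodendrocytes also make Glul, and the summed CPM of 8 oligodendrocyte markers was 2232 to 3113 in CON, 3733 to 9335 in DNP and 2995 to 9558 in BAC. In DNP versus CON all 8 of these markers had an unadjusted p under 0.05 with a higher level in DNP, against 11.2% of all genes in either direction. None passed after adjustment. The sums were 9335 CPM in DNP 1, 7039 in BAC 1 and 9558 in BAC 3, the libraries with brainstem markers. They were 3733 in DNP 2, 7092 in DNP 3 and 2995 in BAC 2, the last within the CON range. The part of oligodendrocytes in the Glul values was not tested.

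Aldh1l1 encodes a folate enzyme used as a general astrocyte marker (chromosome 6, 90486427-90600203). It was the steadiest of the 8, at 63.5, 85.1 and 74.6 CPM in CON, 71.2, 61.8 and 65.2 in DNP, and 77.4, 59.7 and 80.6 in BAC. The groups overlapped in every comparison. The log2 fold changes were -0.17 ± 0.17, 0.14 ± 0.17 and -0.04 ± 0.17 (SE), and the last changed sign when libraries were scaled by their totals alone (0.03). The 95% intervals bound the differences to -0.55 to 0.21, -0.24 to 0.51 and -0.41 to 0.34. Leaving out the 3 libraries with brainstem markers gave -0.24, -0.09 and -0.33.

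Gja1 encodes connexin 43, the main gap junction protein of astrocytes (chromosome 10, 56377330-56402513). Its CPM were 157, 198 and 169 in CON, 231, 144 and 132 in DNP, and 250.1, 173 and 242 in BAC. As for Gfap, DNP 1, BAC 1 and BAC 3 were the 3 highest and did not overlap the other 6, though the medians differed 1.48-fold here against 3.23-fold for Gfap. The other 6 genes overlapped between the libraries with and without brainstem markers. The share of all genes without overlap between these libraries is not given here, so this split has no background to be read against. The log2 fold changes of Gja1 were -0.05 ± 0.24, 0.39 ± 0.25 and 0.34 ± 0.25 (SE), with edgeR adjusted p of 0.963, 0.998 and 0.737. Without the 3 libraries they were -0.35, 0.33 and -0.02.

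**Figure D3:**
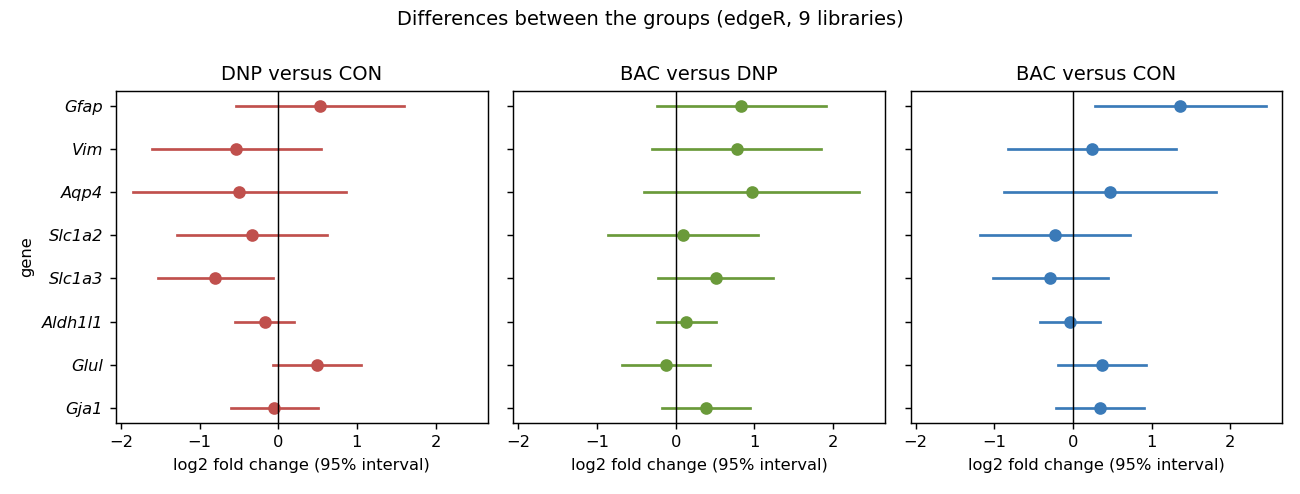
Log2 fold change (x axis) of each gene (y axis) in the 3 comparisons, from the edgeR fit to 9 libraries. Points are estimates and lines 95% intervals. The interval leaves out 0 for Slc1a3 in DNP versus CON (-1.53 to -0.07) and for Gfap in BAC versus CON (0.28 to 2.45), before adjustment over 18501 genes.

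DNP versus CON asks whether diabetic neuropathic pain goes with another level of these genes. No gene of the 18501 tested had an adjusted p under 0.05 in edgeR (0%), while 2067 had an unadjusted p under 0.05 (11.2%) and DESeq2 called 346. Of the 8, Slc1a3 alone (1 of 8, 12.5%) had an unadjusted p under 0.05, and DESeq2 called none (smallest adjusted p 0.227, for Slc1a3). Glul alone (12.5%) had groups that did not overlap, against 18.2% of all genes. The shares of the 8 were therefore near those of all genes. The estimates were above 0 for Gfap and Glul and below 0 for the other 6, while 51.4% of all genes were above 0. Their median was -0.25 against 0.01 over all genes. Erythroid markers (5 genes) summed to 188 to 218 CPM in CON and 477 to 683 in DNP, and the microglial list (8 genes) to 165 to 306 in CON and 314 to 368 in DNP. Mitochondrial genes took 4.34% to 5.36% of the counts in CON and 6.68% to 7.01% in DNP. The part of these 3 differences in the values of the 8 genes was not tested.

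BAC versus DNP asks whether baclofen goes with a further difference. edgeR again called no gene after adjustment (0%), 438 had an unadjusted p under 0.05 (2.37%), and DESeq2 called 7, none of them among the 8. No member had an unadjusted p under 0.05, and none had groups without overlap, against 6.79% of all genes. The estimates were above 0 for 7 of the 8, Glul being the exception, against 48.1% of all genes. Their median was 0.45 against -0.01 over all genes. BAC held 2 libraries with brainstem markers and DNP 1. Without them, with BAC 2 the only BAC library left, the largest estimates were 0.57 (Slc1a2) and 0.51 (Slc1a3). Those of Aqp4, Gja1 and Glul were 0.35, 0.33 and 0.08, and those of Gfap and Vim 0.02 and 0.03. Only Aldh1l1 was below 0 (-0.09).

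BAC versus CON gave no adjusted call in edgeR (0%), 1436 genes with an unadjusted p under 0.05 (7.76%) and 101 DESeq2 calls. Gfap was the only member with an unadjusted p under 0.05 (12.5% of the 8) and the only one without overlap between the groups, against 13.4% of all genes, and DESeq2 called none of the 8 (smallest adjusted p 0.222, for Gfap). The median estimate was 0.29 against -0.02 over all genes. The erythroid markers summed to 471 to 735 CPM in BAC, above every CON library, and DESeq2 called all 5 in this comparison as in DNP versus CON. The mitochondrial share was 5.94% to 7.23% in BAC, also above every CON library. Their part in the values was not tested. All 3 comparisons draw on the same 9 libraries, with DNP, CON and BAC each used in 2 of them, so their estimates are not independent of each other.

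**Figure D4:**
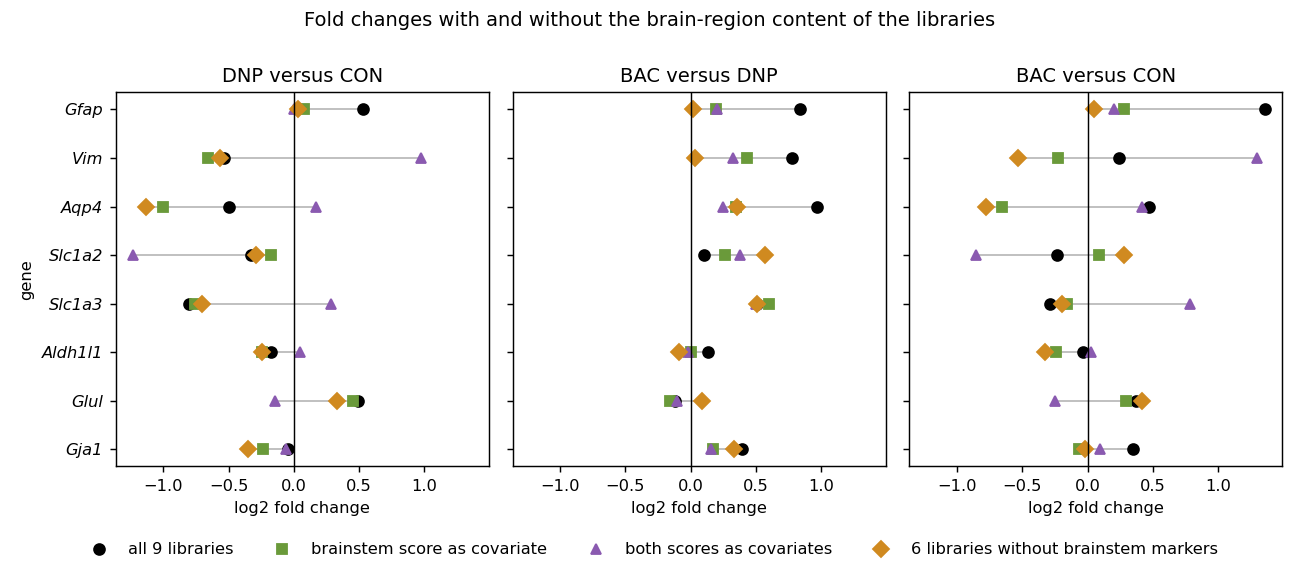
Log2 fold change (x axis) of each gene (y axis) in the 3 comparisons under 4 settings: all 9 libraries (black), with the brainstem score as a covariate (green), with the brainstem and cerebellar scores as covariates (purple) and in the 6 libraries without brainstem markers (orange). Grey lines join the settings of a gene. For Gfap in BAC versus CON the values run from 1.36 with all libraries to 0.05 in the 6, and for Vim and Slc1a3 in DNP versus CON the values lie on both sides of 0.

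A ratio of 2 genes within a library is not moved by its share of astrocyte RNA where astrocytes are the source of both, and 2 such ratios were compared by exact two-sided permutation tests, which cannot go below p = 0.1 with 3 against 3 libraries. The FPKM of Gfap divided by that of Aldh1l1 was 3.67, 2.74 and 3.14 in CON, 7.41, 3.22 and 4.34 in DNP, and 9.75, 4.08 and 9.97 in BAC. The libraries with brainstem markers were again the 3 highest. The mean log2 ratio was 1.66 ± 0.211 in CON, 2.23 ± 0.610 in DNP and 2.88 ± 0.736 in BAC (means ± SD of 3 libraries), with p = 0.2 for DNP versus CON, 0.3 for BAC versus DNP and 0.1 for BAC versus CON (each adjusted p = 0.6 over 6 tests, exact). Every BAC library exceeded every CON library. Without the 3 libraries the differences in log2 ratio were 0.24, 0.13 and 0.37, from means of 3 CON, 2 DNP and 1 BAC libraries. The ratio of Slc1a2 to Aldh1l1 was 18.8, 4.80 and 16.3 in CON, 9.67, 13.9 and 10.6 in DNP, and 7.30, 19.2 and 8.53 in BAC. Its log2 means were 3.51, 3.49 and 3.41, and the differences of -0.02, -0.08 and -0.10 had exact p of 1, 0.9 and 1.

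Among the 28 pairs of the 8 genes, 17 had a Pearson correlation of log2 CPM above 0 over the 9 libraries and 11 below 0. The genes therefore did not move as 1 unit. The highest values were 0.93 for Aqp4 with Gja1 and 0.86 for Vim with Aldh1l1, and the lowest were -0.80 for Slc1a3 with Glul and -0.76 for Vim with Slc1a2. Gfap and Slc1a2, whose promoters are shown above, had -0.40. These values describe 9 libraries that share the brain-region differences above, and no p is given.

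The genes most like each member were taken from 11103 other genes with a mean of at least 10 CPM, by Pearson's r of log2 CPM over the 9 libraries. For Gfap they were Hoxa5 (r = 0.98, Spearman's rho = 0.71) and Hoxb5 (0.98 and 0.65), which pattern the hindbrain and spinal cord, and Slc17a6 (0.97 and 0.90), the vesicular glutamate transporter of brainstem and thalamic neurons. Hoxa5 had no count in the 6 libraries other than DNP 1, BAC 1 and BAC 3 and Hoxb5 at most 0.143 CPM, so their r rests on those 3 libraries. Aqp4 was most like Slc4a4, the sodium bicarbonate cotransporter of astrocytes (0.99 and 0.95), Smad9, a BMP signal transducer (0.98 and 0.97), and Heatr5a (0.98 and 0.88). Aldh1l1 was most like En2, a gene of cerebellum and midbrain that ran from 0.819 to 226 CPM (0.98 and 0.95), Mdn1 (0.97 and 0.95) and Slco4a1 (0.97 and 0.97). Slc1a2 was most like Elfn2, Rgl1 and Nexmif (0.98, 0.97 and 0.97) and Slc1a3 most like Glce, Epc1 and Desi2 (0.98, 0.97 and 0.97). Gja1 was most like Zmpste24, Nadk2 and Ubxn2a (each 0.98), Vim most like Rp2, Araf and Vezf1 (0.97, 0.97 and 0.96), and Glul most like BC029722, Tnfrsf1a, a TNF receptor, and Gm5424 (0.99, 0.98 and 0.97). With this many candidates and 9 libraries, high values are a ranking only.

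A further 91 genes of astrocyte function in 9 lists, 86 of them tested, put the 8 in context. In DNP versus CON, 3 had an unadjusted p under 0.05 with a higher level in DNP and 5 with a lower level (9.30%, against 11.2% of all genes), and 22.1% had groups without overlap (against 18.2%). In BAC versus DNP the counts were 2 higher and 1 lower (3.49%, against 2.37%), and in BAC versus CON 8 higher and 1 lower (10.5%, against 7.76%). None passed the adjusted threshold in edgeR. From each list the 2 genes with the smallest unadjusted p are named, for DNP versus CON and for BAC versus DNP. Counts of genes in a list are from the fit to 9 libraries. Values without the 3 libraries with brainstem markers are given for named genes with an unadjusted p under 0.05 in either comparison. They are also given for Slc6a11, and for Dst, Dtna and H2-T23, whose unadjusted p for DNP versus CON was under 0.05 only there. Leaving those 3 libraries out keeps BAC 2 alone in BAC, so the BAC comparisons of that fit are given as effect sizes only.

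Of 4 partners of the filaments, none had an unadjusted p under 0.05 in any comparison over the 9 libraries. Nes (nestin, the filament of neural precursors) had log2 fold changes of -0.42 ± 0.29 (SE) in DNP versus CON and -0.61 ± 0.29 in BAC versus CON. Dst and Plec, cytoskeletal linkers, had -0.38 ± 0.37 and -0.28 ± 0.21 in DNP versus CON. Dst was 857 CPM in DNP 1, 944 in BAC 1 and 853 in BAC 3, against 358 to 797 in the other 6 libraries. In those 6 its log2 fold change in DNP versus CON was -0.86 (edgeR unadjusted p = 0.00411, adjusted p = 0.447).

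Of 9 genes of glutamate and GABA handling, none passed an unadjusted p of 0.05 for DNP versus CON or BAC versus DNP. The gene with the largest estimate was Slc6a11, the GABA transporter GAT-3 of brainstem and thalamic astrocytes, with 173, 92.0 and 160 CPM in CON, 622, 262 and 146 in DNP, and 376, 238 and 679 in BAC. The libraries with brainstem markers were its 3 highest. Its log2 fold change was 1.28 ± 0.57 in DNP versus CON (unadjusted p = 0.0520) and 1.61 ± 0.57 in BAC versus CON (unadjusted p = 0.0214, edgeR adjusted p = 0.628). Without those libraries these were 0.51 (unadjusted p = 0.216) and 0.74, with BAC 2 the only BAC library left. Slc7a11, the cystine-glutamate exchanger, had -0.61 ± 0.29 for DNP versus CON and 0.60 ± 0.29 for BAC versus DNP.

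Of 10 genes of water and potassium handling, 1 passed an unadjusted p of 0.05 for DNP versus CON: Dag1, the dystroglycan that anchors the endfoot, at 113, 115 and 121 CPM in CON and 87.7, 89.2 and 52.5 in DNP (-0.60 ± 0.22, unadjusted p = 0.0231, edgeR adjusted p = 0.383, and -0.73 without the 3 libraries, unadjusted p = 0.0295). Dtna, a dystrobrevin of the same complex, had -0.42 ± 0.19 in DNP versus CON and 0.37 ± 0.19 in BAC versus DNP. Without the 3 libraries the first of these was -0.55 (edgeR unadjusted p = 0.0459, adjusted p = 0.510). Slc4a4, the gene most like Aqp4, had -0.46 ± 0.54 in DNP versus CON and 0.80 ± 0.54 in BAC versus DNP. The 4 gap junction partners gave no unadjusted p under 0.05 in any comparison, with Gjb2 (connexin 26) at -0.55 ± 0.26 and 0.54 ± 0.26, Gjb6 (connexin 30) at 0.27 ± 0.31 and 0.24 ± 0.31, and Tjp1, a junction scaffold, at -0.21 ± 0.15 and 0.07 ± 0.15, DNP versus CON first and BAC versus DNP second.

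Of 18 astrocyte identity genes, 1 was higher and 1 lower in DNP at an unadjusted p under 0.05. Cldn10, a claudin, had 15.5, 15.2 and 15.2 CPM in CON, 30.8, 20.3 and 23.1 in DNP, and 24.3, 22.9 and 28.7 in BAC. Every diabetic library stood above every CON library, those without brainstem markers too. Its log2 fold change was 0.69 ± 0.18 in DNP versus CON (unadjusted p = 0.00488, edgeR adjusted p = 0.312) and 0.72 ± 0.18 in BAC versus CON (unadjusted p = 0.00373, adjusted p = 0.628). Without the 3 libraries these were 0.49 (unadjusted p = 0.0230) and 0.57, with BAC 2 the only BAC library left. Sox9, the transcription factor that sets astrocyte fate, had 37.3, 43.3 and 34.3 CPM in CON, 29.4, 28.1 and 22.8 in DNP, and 40.2, 43.2 and 36.5 in BAC. DNP lay below both other groups without overlap, with -0.52 ± 0.16 against CON (unadjusted p = 0.00960, adjusted p = 0.342) and BAC versus DNP at 0.58 ± 0.16 (unadjusted p = 0.00524, adjusted p = 0.998). These were -0.60 (unadjusted p = 0.0204) and 0.76 without the 3 libraries, the second again with BAC 2 alone in BAC. Slc39a12, a zinc transporter, had 0.24 ± 0.41 and 0.56 ± 0.41, and was 73.2 to 77.8 CPM in the 3 libraries with brainstem markers against 28.1 to 43.3 in the others.

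Reactive astrocytes have been described by pan-reactive, A1 and A2 gene lists. Of 11 pan-reactive genes 8 were tested, of which 1 was higher and 1 lower in DNP at an unadjusted p under 0.05. Lcn2, the secreted lipocalin-2, had 2 counts in each CON library, 107, 64 and 31 in DNP and 31, 38 and 15 in BAC. It was the only gene of the 9 lists that DESeq2 called in DNP versus CON (adjusted p = 3.77e-06; edgeR adjusted p = 0.294) and was called in BAC versus CON too (0.00486; edgeR 0.628). Its unadjusted edgeR p was 5.41e-05 and 0.000450 in these comparisons. Without the 3 libraries its log2 fold change in DNP versus CON was 4.44 (edgeR unadjusted p = 0.000245, adjusted p = 0.334). That in BAC versus CON was 4.15, with BAC 2 the only BAC library left. In BAC versus DNP, Lcn2 had a log2 fold change of -1.28 ± 0.52 (unadjusted p = 0.0378, edgeR adjusted p = 0.998), with groups that overlapped. It was -0.28 without the 3 libraries with brainstem markers. DNP 1, one of those 3, held the highest Lcn2 count of the 9 libraries. Cd44, a hyaluronan receptor, had -1.22 ± 0.53 in DNP versus CON (unadjusted p = 0.0472), opposite in sign to that of Lcn2, and -2.01 without the 3 libraries (unadjusted p = 0.00487, edgeR adjusted p = 0.447). Cp (ceruloplasmin) had 0.42 ± 0.24 in BAC versus DNP (unadjusted p = 0.115).

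None of the 11 A1 genes had an unadjusted p under 0.05 in any comparison over the 9 libraries. H2-T23 and Psmb8, of antigen presentation, had 0.74 ± 0.33 and 0.51 ± 0.26 in DNP versus CON. Without the 3 libraries with brainstem markers H2-T23 was 1.02 in this comparison (edgeR unadjusted p = 0.00388, adjusted p = 0.447). Serping1, the C1 inhibitor, had 1.28 ± 0.61 in BAC versus DNP. Of 12 A2 genes 10 were tested. Cd14, which microglia make too, was 1.66, 1.35 and 2.18 CPM in CON and 4.85, 2.46 and 3.15 in DNP, a log2 fold change of 1.01 ± 0.33 (unadjusted p = 0.0150, edgeR adjusted p = 0.363), and 0.68 without the 3 libraries (unadjusted p = 0.0994). Cd109 had 0.68 ± 0.38 in the same comparison, and B3gnt5 and Tm4sf1 had 1.42 ± 1.09 and -0.32 ± 0.27 in BAC versus DNP. In BAC versus CON, 3 of the 10 tested A2 genes had an unadjusted p under 0.05, against 7.76% of all genes. All 3 were higher in BAC. The groups did not overlap for 4 of the 10 (40%, against 13.4% of all genes). Cd109 had 1.119 ± 0.383 and Cd14 0.839 ± 0.332 (edgeR unadjusted p = 0.0179 and 0.0336, each adjusted p = 0.628). Without the 3 libraries these were 0.506 and 0.984, with BAC 2 the only BAC library left.

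Of 12 regulators of the astrocyte state, 2 passed an unadjusted p of 0.05 for DNP versus CON, both with a lower level in DNP. Nfib and Nfix, nuclear factor I genes that act in gliogenesis, had -0.95 ± 0.30 and -0.92 ± 0.34 (unadjusted p = 0.0116 and 0.0263, edgeR adjusted p = 0.354 and 0.392), and -0.90 and -0.86 without the 3 libraries (unadjusted p = 0.0339 and 0.0358). Both were highest in CON 2 (158 and 525 CPM), and granule cells of the cerebellum express them too. Nfib was 108 and 119 CPM in the other CON libraries against 48.9 to 89.2 in DNP, and Nfix 322 and 374 against 176 to 277. In BAC versus CON, Nfix had -0.88 ± 0.34 (unadjusted p = 0.0319, edgeR adjusted p = 0.628) and Nfib -0.54 ± 0.29 (unadjusted p = 0.104). The part of cerebellar content in these values was not tested. Bmpr1a, a BMP receptor, had 0.51 ± 0.20 in BAC versus DNP (unadjusted p = 0.0345, adjusted p = 0.998) and 0.40 without the 3 libraries. Smad1, its transducer, had 0.22 ± 0.14 in BAC versus DNP.

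**Figure D5:**
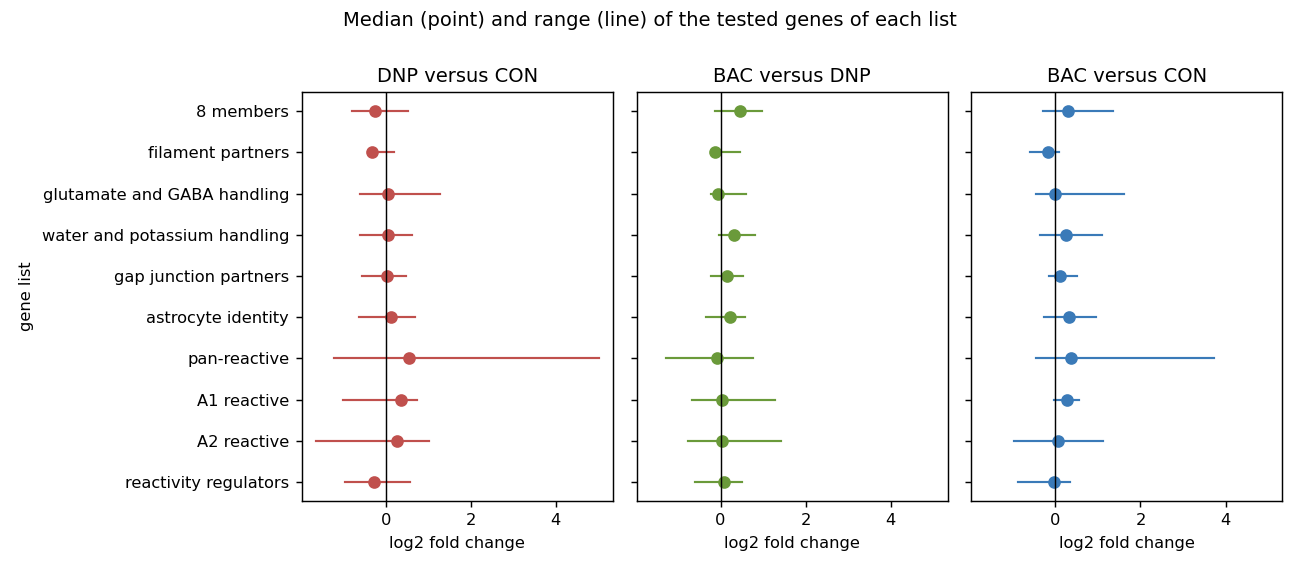
Median (point) and range (line) of the log2 fold changes (x axis) of the tested genes in each list (y axis) in the 3 comparisons. The medians of the 9 wider lists lie between -0.33 and 0.54, and each of their ranges crosses 0. The far right end of the pan-reactive range in DNP versus CON and BAC versus CON is Lcn2. Its CON libraries held 2 counts each, so its place there rests on low CON counts.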

How the data were processed

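Poly(A) RNA of 9 whole brains, 3 per group, was sequenced from paired ends without strand information, so reads of antisense partners cannot be told apart. The authors checked the reads with FastQC 0.11.9, filtered them with fastp, aligned them to GRCm38 with HISAT2 2.1.0 (Bowtie2 2.3.4.1 for related steps) and quantified genes with StringTie 1.3.3b, per the submitters' processing notes. They deposited raw counts per gene and FPKM values per gene. Each FPKM value equals the count divided by a gene length and the library total (implied lengths differed between libraries by a ratio of at most 1.000136 over 16574 genes), so it carries no TMM factor. How reads of several genes were counted is not given in the sources used here.

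Counts were analysed in R 4.3.3. Genes kept by filterByExpr of edgeR 4.0.16 (minimum count 10) were fitted over the 9 libraries with group as the factor, TMM normalization and the quasi-likelihood test, with Benjamini-Hochberg adjustment over 18501 genes and a threshold of 0.05. CPM used TMM-scaled totals, and log2 CPM a prior count of 2. The biological coefficient of variation was 36.5%. Libraries within a group gave chi-square values of 15.2 to 117 per degree of freedom, so libraries differed beyond counting error. The fits were tested on simulated data. Gene positions came from GENCODE (GRCm38) and promoter windows from RefSeq (GRCm38.p6).

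The members, the 9 wider lists, the 15 region and cell type lists and the naming rule were chosen with earlier results of these data known. The rule named the members, 2 genes per wider list with the smallest unadjusted p in DNP versus CON and 2 in BAC versus DNP, and 3 genes per member by likeness. A gene that this rule names among the wider lists is not reported here. Marker-list genes were named where a member moved with them. Alternatives were DESeq2 1.42.0, RLE or total scaling, no filter, limma 3.58.1 on log2 FPKM (pseudocount 1, or 0.1), 2 groups only, a replicate block, region scores as covariates, libraries without brainstem markers and each library left out. The alternative that also drops CON 2, and the ratios and wider-list genes without the libraries with brainstem markers, were added after the data were seen. Human blood, behaviour, qPCR and docking data were not analysed here.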

Additional observations from a re-analysis of the deposited data

How the results depend on the processing

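None of the 8 genes passed the adjusted threshold under any of the 19 alternatives to a comparison. The smallest adjusted p was 0.105, for Gfap in BAC versus CON with the cerebellar score as a covariate in edgeR. Gfap had its main direction under all 19 in each comparison, but its smallest values were near 0. The log2 fold change in DNP versus CON ran from 0.0008 (both scores) to 0.94 (cerebellar score). That in BAC versus DNP ran from 0.02 (without the 3 libraries with brainstem markers) to 1.32 (without DNP 1). That in BAC versus CON ran from 0.05 (without the same 3) to 1.74 (without BAC 2). The sign of a member's fold change turned in 15 of 152 values for DNP versus CON, 9 of 152 for BAC versus DNP and 21 of 152 for BAC versus CON. Apart from what the construction of an alternative shows, the cause was not tested.

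DESeq2 called 346 genes for DNP versus CON, 7 for BAC versus DNP and 101 for BAC versus CON, where edgeR called 0. With both scores as covariates edgeR called 1 gene in DNP versus CON and 1 in BAC versus CON, and 0 to 1 in each of these when a library was left out (1 without CON 2 and 1 without CON 3). Genes with an unadjusted p under 0.05 ranged from 1426 to 3798, 216 to 1484 and 604 to 3504 in the 3 comparisons.

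Aldh1l1 in BAC versus CON was 0.028 with library totals and 0.024 and 0.025 in limma on FPKM with a pseudocount of 1 and 0.1. With the brainstem score, BAC versus CON was -0.23 for Vim, -0.65 for Aqp4, 0.090 for Slc1a2 and -0.067 for Gja1. With the cerebellar score, DNP versus CON was 0.33 for Vim, 0.39 for Aqp4, 0.035 for Aldh1l1 and 0.23 for Gja1, and Aldh1l1 was -0.024 for BAC versus DNP and 0.011 for BAC versus CON. With both scores, DNP versus CON was 0.97 for Vim, 0.17 for Aqp4, 0.28 for Slc1a3, 0.050 for Aldh1l1 and -0.14 for Glul, Aldh1l1 was -0.022 in BAC versus DNP, and BAC versus CON was 0.78 for Slc1a3, 0.027 for Aldh1l1 and -0.25 for Glul.

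Without the 3 libraries with brainstem markers, BAC versus DNP was -0.086 for Aldh1l1 and 0.084 for Glul, BAC versus CON was -0.54 for Vim, -0.78 for Aqp4, 0.28 for Slc1a2 and -0.021 for Gja1, and the Slc1a2 to Aldh1l1 log2 ratio differed by 0.093, 0.66 and 0.76 in the 3 comparisons. Without CON 2 as well, Vim was 0.14 in DNP versus CON, Aldh1l1 and Glul were -0.075 and 0.094 in BAC versus DNP, and Aqp4 and Slc1a3 were -0.13 and 0.18 in BAC versus CON.

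With each library left out in turn, DNP versus CON ranged from -0.89 to 0.16 for Vim, -1.11 to 0.12 for Aqp4 and -0.34 to 0.10 for Gja1. BAC versus DNP ranged from -0.24 to 0.030 for Glul and -0.25 to 0.30 for Slc1a2. BAC versus CON ranged from -0.12 to 0.94 for Vim, -0.51 to 0.066 for Slc1a3 and -0.14 to 0.084 for Aldh1l1. The Slc1a2 to Aldh1l1 log2 ratio ranged from -0.64 to 0.35, -0.51 to 0.19 and -0.72 to 0.26, with the comparisons in the same order.

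Deviations from the group means correlated at -0.58 to 0.56 between libraries with the same replicate number and at -0.70 to 0.61 between those with other numbers. These values do not show whether the numbers pair the mice. With a replicate block edgeR called 0 genes in each comparison, and 1688, 382 and 1203 genes had an unadjusted p under 0.05, against 2067, 438 and 1436 without it. Each member had at least 416 counts in every library, and the libraries of a group differed beyond counting error.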
